A study of Homo sapiens with 8 samples.

Results

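DNMT1 ChIP-Seq peaks were compared between PC3 cells (WT) and PC3 cells with a stable DAXX knockdown (DAXX K/D). Both deposited DNMT1 lists were used whole on chromosomes 1 to 22, X and Y. They held 2234 WT and 595 K/D peaks, together 2829 of the 249711 peaks and regions in the 6 lists of the study. A WT peak was called kept when it had 1 bp or more in common with a K/D peak and lost otherwise, so that lost means not called in the K/D list. A K/D peak without a WT partner was called K/D-only. PC3 is a cell line from a bone metastasis of prostate cancer. The knockdown line carried a lentiviral DAXX shRNA and was held in puromycin. The control is wild type by its sample labels and a line with a control shRNA by the series text, and WT stands here for either. Chromatin was fixed with DSG and formaldehyde and precipitated with a goat antibody to DNMT1. There was 1 library per side, so no test between WT and K/D cells was possible, and all intervals below are 95% intervals that cover counting error over peaks only. DAXX expression is not measured by these lists. With the DAXX antibody, 15.8% of WT tags and 6.83% of K/D tags fell in peaks. The share was lower in K/D cells also with the antibody to H3(Lys4), a histone mark, at 23.9% in WT and 15.1% in K/D. Less DAXX on chromatin and weaker enrichment of the K/D libraries cannot be told apart from these shares, and they are not used here as a measure of the knockdown.

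DNMT1 is the maintenance DNA methyltransferase. It copies CpG methylation onto the newly made strand behind the replication fork, where UHRF1 and PCNA help to bring it to hemimethylated sites. DAXX is a histone H3.3 chaperone and transcriptional co-repressor that is known to associate with DNMT1. Active promoters rich in CpG are usually free of methylation, and AP-1, the dimer of FOS and JUN proteins, is a common factor at open enhancers of carcinoma cells.

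Sequences of 4 of the first 5 kept peaks of the WT list are shown as examples, and they do not stand for the kept peaks as a whole. All sequences are the plus strand of hg19 (GRCh37) over the deposited WT peak, in lower case, with the AP-1 site TGACTCA on either strand in capitals.
ARID5B peak, chr10:63836785-63836913: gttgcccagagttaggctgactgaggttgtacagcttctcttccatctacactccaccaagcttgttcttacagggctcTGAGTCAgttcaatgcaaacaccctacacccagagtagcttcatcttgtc
MBD2 peak, chr18:51549970-51550098: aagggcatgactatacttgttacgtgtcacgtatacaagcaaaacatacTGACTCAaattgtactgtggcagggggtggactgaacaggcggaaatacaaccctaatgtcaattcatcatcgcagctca
THEM4 peak, chr1:151913971-151914099: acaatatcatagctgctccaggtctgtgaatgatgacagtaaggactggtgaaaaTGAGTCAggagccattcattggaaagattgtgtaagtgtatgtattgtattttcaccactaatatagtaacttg
PTHLH peak, chr12:28120623-28120751: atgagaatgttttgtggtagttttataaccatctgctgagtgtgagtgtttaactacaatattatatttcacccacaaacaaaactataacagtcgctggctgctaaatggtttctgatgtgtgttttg

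The ARID5B peak was the first peak of both lists, and its AP-1 site lay 18 bp from the peak centre. It stood in an intron of ARID5B, which encodes a DNA-binding transcriptional coregulator, 27.9 kb from a TSS. The MBD2 peak (place 3 in WT, place 38 in K/D) lay 201 kb from the nearest TSS, that of MBD2, which encodes a methyl-CpG-binding protein, and it held 4 CpGs. The THEM4 peak (places 4 and 2) lay 31.9 kb upstream of THEM4. The PTHLH peak (places 5 and 8) lay in an intron 1.74 kb from a TSS. PTHLH encodes parathyroid hormone-related protein, which drives bone resorption around metastases. The ARID5B, THEM4 and MBD2 peaks held the AP-1 site and the PTHLH peak did not, while over all 192 kept peaks 26.04% of windows of 201 bp held it. The ARID5B and THEM4 peaks held 0 CpGs over their 129 bp.

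The first 3 lost peaks are shown because they stood at places 8, 9 and 14 of the WT list, among kept peaks.
ACTN1 peak, chr14:69351116-69351244: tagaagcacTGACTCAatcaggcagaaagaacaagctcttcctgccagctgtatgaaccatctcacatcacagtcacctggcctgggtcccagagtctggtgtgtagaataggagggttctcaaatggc
PARD3 peak, chr10:34410941-34411069: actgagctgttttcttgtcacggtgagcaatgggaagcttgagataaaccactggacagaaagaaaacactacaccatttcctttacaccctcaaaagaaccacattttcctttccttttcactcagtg
ERN1 peak, chr17:62159628-62159756: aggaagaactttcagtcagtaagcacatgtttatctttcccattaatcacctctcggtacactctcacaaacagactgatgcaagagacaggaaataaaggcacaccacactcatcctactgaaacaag

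All 3 were intronic. ACTN1 encodes an alpha-actinin that cross-links actin filaments, PARD3 a cell polarity scaffold and ERN1 the IRE1 sensor of the unfolded protein response. The nearest K/D DNMT1 peak was 1442 kb away for ACTN1, 212 kb for PARD3 and 13.3 kb for ERN1. The ACTN1 peak had an AP-1 site 52 bp from its centre and lay on both DAXX lists. The PARD3 and ERN1 peaks had no AP-1 site and lay on neither DAXX list.

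Among the K/D-only peaks, the first of the list and the first 2 with an AP-1 site are shown, over the deposited K/D peak.
FOS peak, chr14:75725895-75726015: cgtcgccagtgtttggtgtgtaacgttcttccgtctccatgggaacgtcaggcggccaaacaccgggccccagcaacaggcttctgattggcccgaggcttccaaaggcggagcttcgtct
TNFSF4 peak, chr1:173131110-173131230: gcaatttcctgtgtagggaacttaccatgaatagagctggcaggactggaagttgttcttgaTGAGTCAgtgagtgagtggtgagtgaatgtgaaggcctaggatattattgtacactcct
ZMAT2 peak, chr5:140098375-140098495: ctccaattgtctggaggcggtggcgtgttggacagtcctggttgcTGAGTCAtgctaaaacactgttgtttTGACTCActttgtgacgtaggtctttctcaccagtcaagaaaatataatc

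The FOS peak, at place 3 of the K/D list, lay 19.6 kb upstream of FOS, which encodes an AP-1 subunit, and was itself without an AP-1 site. It was the most CpG-rich of the sequences shown, with 10 CpGs in 121 bp, and no other list had a peak there. The TNFSF4 peak (place 33) lay 43.5 kb downstream of the TSS of TNFSF4, the OX40 ligand gene, with its site 5 bp from the centre. The ZMAT2 peak (place 65) lay 18.4 kb from the TSS of ZMAT2, a splicing factor gene, and held 2 AP-1 sites. Neither was on any other list. The nearest WT DNMT1 peaks were 82.6 kb from the FOS peak, 99.7 kb from the TNFSF4 peak and 874 kb from the ZMAT2 peak.

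The libraries differed in depth less than in the number of peaks. The WT library had 14391288 tags and the K/D library 12050101, a ratio of 1.19, while 37819 and 7994 tags lay in peaks, a ratio of 4.73. That is 0.26% of WT and 0.07% of K/D tags, a ratio of 3.71. Both shares were far below those of the DAXX and H3(Lys4) libraries, the lowest of which was 6.83%. Before filtering, 14065 putative WT and 2710 putative K/D peaks were found (ratio 5.19), and the comparison with input removed 79.6% and 74.8% of them. The peaks that passed held 16.9 tags per peak in WT and 13.3 in K/D, with a threshold of 9 tags in both, and scaled by total tags the ratio of tags per peak was 1.06. The K/D libraries of the DAXX and H3(Lys4) antibodies also had a lower share of tags in peaks than their WT libraries. Less DNMT1 on chromatin and weaker enrichment of this 1 K/D library cannot be told apart.

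Of the 2234 WT peaks 192 were kept, or 8.59% (interval 7.47 to 9.83). Of the 595 K/D peaks the same 192 were shared, or 32.3% (interval 28.5 to 36.2), and 403 were K/D-only. The shared peaks paired 1 to 1, with a median of 25 bp and at most 119 bp between centres. Few lost peaks had a K/D peak close by. The nearest K/D peak was at a median of 1303531 bp, and it was within 1 kb for 32 of 2042 (1.57%). For K/D-only peaks the nearest WT peak was at a median of 149073 bp, and within 1 kb for 21 of 403 (5.21%). The list searched was shorter for the lost peaks than for the K/D-only peaks, so these distances are not to be set against each other.

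The deposited score is 1 for every peak, so the place in the list was the measure of strength. Places were coarse. After the first peaks, the lists ran in stretches sorted by chromosome and position. In WT 80.0% of peaks, and in K/D 73.3%, stood in stretches of 20 or more, the longest with 276 and 58 peaks. The first stretch of this length began at place 330 in WT and at place 141 in K/D. Within a stretch the place follows genome position. Stretches were used as a second set of strata below, a choice made after the data were seen.

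Keeping fell steeply along the WT list. In 5 equal parts of the list, taken in order, 32.9%, 5.15%, 2.46%, 1.34% and 1.12% of peaks were kept, so that the first part held 147 of the 192 kept peaks. The median place was 187.5 for kept and 1199.5 for lost peaks. Seen from the K/D list the fall was less steep, with 74.8%, 31.9%, 22.7%, 20.2% and 11.8% shared in its 5 parts. Of the first 60 K/D peaks 55 (91.7%, interval 81.6 to 97.2) had a WT partner, and among the first 50 it was 46. Over the 192 pairs the places in both lists had a Spearman correlation of 0.619, given as a description. Of the first 50 WT peaks 33 (66.0%) had a K/D partner. The list searched was shorter for WT peaks than for K/D peaks, so these shares are not like for like. Most of the first peaks of either list thus had a partner, while 300 of the 447 peaks in the first part of the WT list had none.

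**Figure D1:**
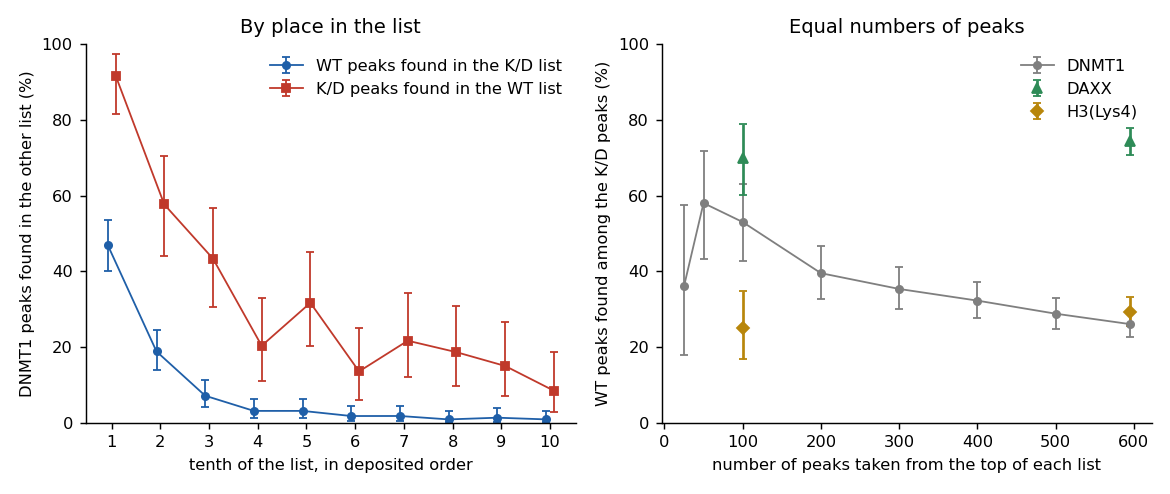
Left, the percentage of DNMT1 peaks found in the other list (y axis) in 10 equal parts of the WT list and of the K/D list in deposited order (x axis). Right, the percentage of the first N WT peaks found among the first N K/D peaks (y axis) against N (x axis) for DNMT1, with DAXX and H3(Lys4) at 100 and 595. Bars are exact 95% binomial intervals. The first of the 10 parts stands at 46.9% for WT and 91.7% for K/D, and the equal-number share of DNMT1 falls to 26.1% at 595, against 74.5% for DAXX.

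Equal numbers from the top of each list remove the difference in length. Of the first 50 WT peaks 58.0% (interval 43.2 to 71.8) were among the first 50 K/D peaks, of the first 100 it was 53.0% (42.8 to 63.1), of the first 300 it was 35.3% (29.9 to 41.0), and of the first 595 it was 26.1% (22.6 to 29.8). The DAXX lists, treated alike, shared 70 of the first 100 (interval 60.02% to 78.8%) and 74.5% of the first 595 (70.7 to 77.9). At 595 the DNMT1 and DAXX intervals were far apart, at 100 they overlapped. These DAXX peaks are the very top of lists many times longer, whereas 595 is the whole K/D DNMT1 list. For the regions of H3(Lys4), a methylated histone H3 mark, 25 of the first 100 and 29.2% of the first 595 were shared. Those regions are wider than DNMT1 peaks, and the peak numbers in their lists followed the place less closely (median Spearman correlation within chromosomes of 0.589 in WT H3(Lys4), against 0.947 in WT and 0.861 in K/D DNMT1).

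**Figure D2:**
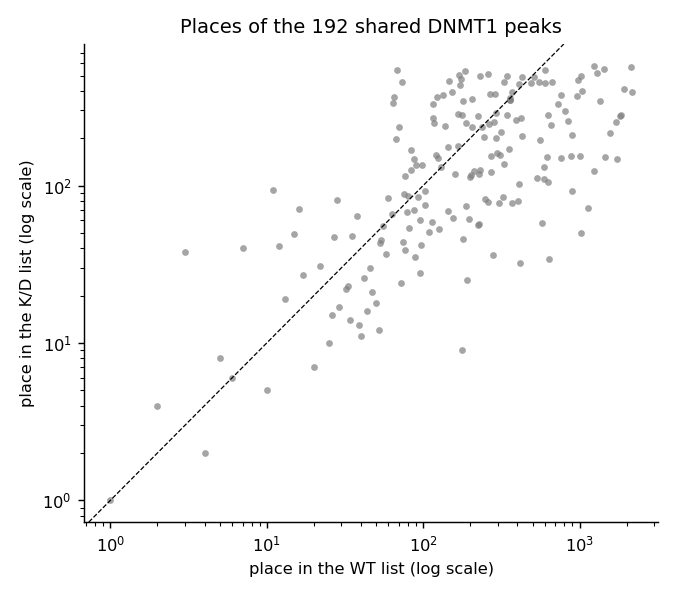
Place of each of the 192 shared DNMT1 peaks in the WT list (x axis, log scale) and in the K/D list (y axis, log scale), 1 point per pair. The dashed line marks equal places. The first WT peak is also the first K/D peak, and the points spread widely beyond place 100 (Spearman correlation 0.619).

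Kept peaks were closer to promoters and richer in CpG than lost peaks. A promoter was taken to begin 1000 bp before a protein-coding TSS and to end 100 bp after it, and promoters cover 1.03% of the chromosomes. They held 11.5% of kept peaks (22 of 192, interval 7.32 to 16.8), 3.97% of lost peaks (81 of 2042, interval 3.16 to 4.91) and 6.95% of K/D-only peaks (28 of 403, interval 4.67 to 9.89). Since keeping depended on place, odds were combined over the 5 parts of the WT list by the Mantel-Haenszel method. The odds of being kept were 3.46-fold higher in promoters (interval 1.88 to 6.38). Within the first part, 60.0% of 25 promoter peaks and 31.3% of 422 other peaks were kept. Windows with 5 or more CpGs had an odds ratio of 2.78 (1.74 to 4.43), and windows with the SP1 motif GGGCGG, a GC box of CpG-rich promoters, one of 4.76 (2.34 to 9.70). The odds ratio was 1.88 (1.29 to 2.74) for peaks within 10 kb of a TSS. With the stretches of the list as strata these 4 odds ratios were 3.54, 2.94, 5.55 and 2.02, and all intervals stayed above 1. The 4 features overlap and are not separate evidence.

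The mean number of CpGs per window of 201 bp was 3.797 in kept peaks, 2.01 in lost peaks and 2.69 in K/D-only peaks. In windows 2 kb to either side it was 2.67, 2.12 and 2.08. Kept peaks in promoters were CpG-rich for the most part, with 5 or more CpGs in 18 of 22 (81.8%, interval 59.7 to 94.8) and a median of 17.5. Lost promoter peaks had 5 or more in 43 of 81 (53.1%, interval 41.7 to 64.3) with a median of 6. K/D-only promoter peaks had them in 25 of 28 (89.3%, interval 71.8 to 97.7). Away from promoters the shares were 11.8%, 6.48% and 9.60%. AP-1 sites stood in 0 of 22 kept, 15 of 81 lost and 2 of 28 K/D-only promoter peaks. Most DNMT1 peaks of every class lay outside promoters, and 24.9% of all WT windows held no CpG.

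Kept promoter peaks stood at genes of many kinds. The peak at PPP2R5A, a regulatory subunit of the phosphatase PP2A, was at place 12, lay 13 bp from the TSS and held 24 CpGs. FUZ, a planar cell polarity gene, had a kept peak 447 bp upstream (place 22, 9 CpGs), next to MED25 of the Mediator complex. Kept peaks stood 34 bp upstream of SCAP, the escort of the sterol regulators SREBP (place 96, 26 CpGs), and 91 bp upstream of HUS1, a subunit of a DNA damage checkpoint clamp (place 231, 18 CpGs). CNOT9 (place 190, 13 CpGs) and CNOT2 (place 538, 20 CpGs), both of the CCR4-NOT deadenylase complex, had kept peaks within 100 bp of a TSS. RRP12, which acts in ribosome assembly, had the kept promoter peak with the most CpGs (place 590, 33 CpGs). The kept peak 352 bp upstream of GIPR (place 47), the receptor gene of an incretin hormone, held 0 CpGs.

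**Figure D3:**
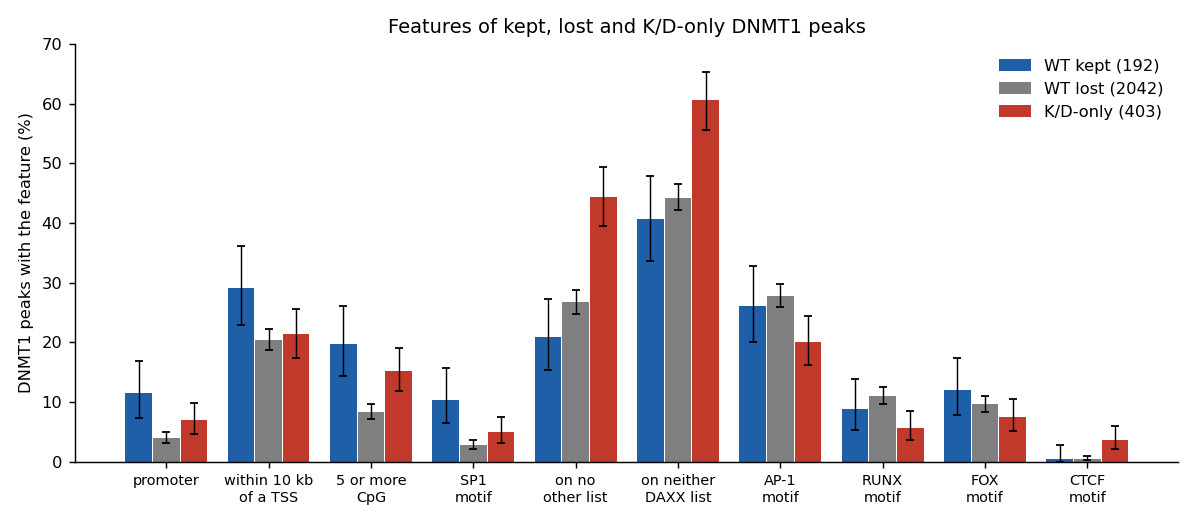
Percentage of DNMT1 peaks with each feature (y axis) for kept WT peaks, lost WT peaks and K/D-only peaks, with exact 95% binomial intervals as bars. CpG and motifs were counted within 100 bp of the centre. Promoter and CpG-rich peaks are most frequent among kept peaks (11.5% and 19.8%), and K/D-only peaks are the most often on no other list (44.4%).

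The AP-1 site was in 26.04% of kept windows (interval 19.99 to 32.9), 27.8% of lost windows (25.9 to 29.8) and 20.1% of K/D-only windows (16.3 to 24.4), against 4.17%, 3.31% and 3.35% in windows 2 kb away. This is a 6.25-fold excess in kept, an 8.41-fold excess in lost and a 6-fold excess in K/D-only peaks. Over the 5 parts of the list, the odds ratio of being kept with an AP-1 site was 0.736 (interval 0.508 to 1.07). With the stretches as strata, a choice made after the data were seen, it was 0.597 (0.385 to 0.924). The interval thus stayed below 1 with the stretches but included 1 over the 5 parts. Sites gathered at the centre, and 9.49% of WT and 9.58% of K/D peaks had one within 25 bp of it. A WT H3(Lys4) region lay on 28.6% of kept and 38.5% of lost peaks, with an odds ratio over the 5 parts of 0.775 (0.542 to 1.11).

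**Figure D4:**
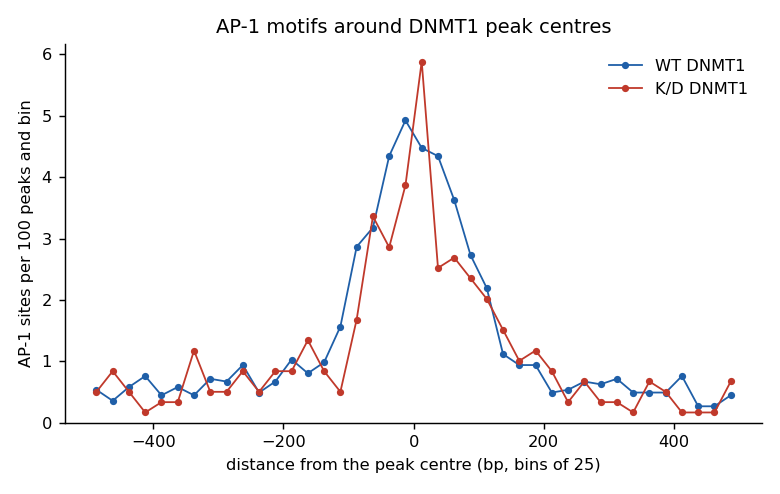
AP-1 sites per 100 peaks and bin of 25 bp (y axis) against the distance from the peak centre in bp (x axis) for the WT and K/D DNMT1 lists. Both lines peak at the centre, at 4.92 sites per 100 peaks and bin in WT and 5.88 in K/D, and fall below 1 or close to it beyond 200 bp.

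Some other short sequences were in excess without being part of an AP-1 site. In the WT list, ACAGTC stood in 26.7% of windows and 7.63% of windows 2 kb away (3.50-fold), ACTGTA in 28.7% and 10.7%, and GTACAC in 11.1% and 4.19%. Among the 982 WT peaks on neither DAXX list, ACAGTC came before the AP-1 words, with 26.4% against 7.79% beside them. In the K/D list GTACAC came first, with 10.9% against 3.19% (3.42-fold), and ACAGTC stood in 25.04% against 8.49%. Among K/D-only peaks the AP-1 words GAGTCA (28.0%) and GACTCA (25.1%) led, in 2.82-fold and 2.56-fold excess.

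K/D-only peaks lay more often than lost peaks where no other antibody had a peak. Of the K/D-only peaks 179 of 403 (44.4%, interval 39.5 to 49.4) were on none of the DAXX and H3(Lys4) lists, against 26.7% of the lost peaks, an odds ratio of 2.19 (1.75 to 2.74). On neither DAXX list were 60.5% of K/D-only and 44.3% of lost peaks (odds ratio 1.93, interval 1.55 to 2.42). The difference lay with the WT lists. A WT DAXX peak lay on 29.3% of K/D-only and 52.5% of lost peaks, and a WT H3(Lys4) region on 22.3% and 38.5%. With the lists of K/D cells the 2 classes were close, at 32.0% and 29.7% for DAXX and 22.3% and 21.0% for H3(Lys4). K/D-only peaks had 5 or more CpGs more often (odds ratio 1.96, 1.41 to 2.71) and lay in promoters more often (1.81, 1.12 to 2.85). They held the AP-1 site less often (0.653, 0.496 to 0.853) and so too the RUNX motif TGTGGTT, in 5.71% against 11.1% (0.486, 0.298 to 0.761). For kept against lost peaks, being on no other list had an odds ratio of 0.926 (0.617 to 1.39). In all 13 features were compared for each of the 2 contrasts, 26 comparisons without adjustment, and the second contrast takes no account of place.

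The motif of the insulator protein CTCF was rare but uneven. It stood in 15 of 403 K/D-only windows (3.72%, interval 2.098 to 6.07), in 11 of 2042 lost windows (0.539%, interval 0.269 to 0.962) and in 1 of 192 kept windows. The odds ratio of K/D-only to lost was 7.13 (3.03 to 17.3). Of these 15 peaks 12 were on no other list, 1 was in a promoter, that of REXO1, and 5 were on chromosome 14. The first stood at place 100 of the K/D list, and their median place was 430. The ETS motif CCGGAAG stood in 2.23% of K/D-only and 0.833% of lost windows (odds ratio 2.72, 1.06 to 6.51). The motifs of FOX factors (TGTTTAC) and the half-site of nuclear receptors (AGGTCA) had intervals that included 1 in both contrasts.

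The K/D list was distributed over the chromosomes in another way than the WT list. Chromosome 10 held 6.94% of WT peaks (155, interval 5.92 to 8.07) but 14.6% of K/D peaks (87, interval 11.9 to 17.7), and chromosome 1 held 10.7% (238) of WT and 14.3% (85) of K/D peaks. The DAXX lists had 4.80% and 4.67% of their peaks on chromosome 10, and 9.63% and 9.59% on chromosome 1. On chromosome 10, 9 of the 155 WT peaks were kept (5.81%, interval 2.69 to 10.7), and the interval holds the 8.59% of the whole list. Of its 87 K/D peaks 78 were K/D-only, against 67.7% of all K/D peaks. On chromosome 19, one of the gene-dense chromosomes, 7 of 25 WT peaks were kept (28.0%, interval 12.1 to 49.4), the highest share of any chromosome. Of these 25 peaks 9 stood in the first of the 5 parts of the list, where 32.9% of all peaks were kept. In windows of 10 Mb, the K/D list exceeded the WT list in 6 of 322 windows. The largest excess was at 70 to 80 Mb of chromosome 10, with 18 WT and 31 K/D peaks, 30 of them K/D-only. This window held 0.806% of WT and 5.21% of K/D DNMT1 peaks, and 0.601% of WT and 0.592% of K/D DAXX peaks.

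**Figure D5:**
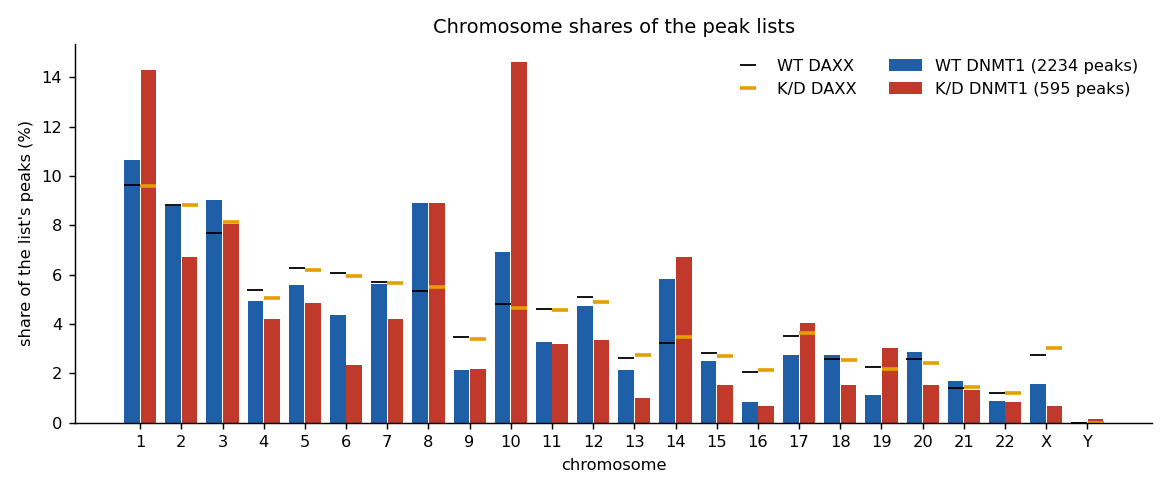
Share of each list's peaks (y axis, percent) on each chromosome (x axis) for the WT and K/D DNMT1 lists (bars) and the DAXX lists (marks). Chromosome 10 stands out in K/D DNMT1, with 14.6% against 6.94% in WT DNMT1 and 4.67% in K/D DAXX.

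A set of 6 windows of 10 Mb had 10 or more K/D-only peaks each, a limit chosen after the data were seen, and 3 of them were on chromosome 10 (30 to 40, 60 to 70 and 70 to 80 Mb). Together they make up 1.94% of the chromosomes and held 106 of the 403 K/D-only peaks (26.3%), 7.98% of the lost peaks, and 3.67% and 3.75% of the WT and K/D DAXX peaks. The K/D-only peaks inside them were poor in promoters (0.943%) and CpG (5.66% with 5 or more), with a median GC content of 35.3% against 40.3% for those outside, and 57.5% of them were on no other list. The lost WT peaks of the same windows had near values, with 0 of 163 in promoters (interval up to 2.24%), 6.75% with 5 or more CpGs, a median GC content of 37.8% and 52.1% on no other list. The median place of the K/D-only peaks was 314.5 inside and 376 outside, and the limit used K/D-only counts, so their share in these windows is a description. The K/D-only peaks outside these windows still differed from the lost peaks outside them. The odds ratio was 2.03 (1.56 to 2.63) for being on no other list, 2.46 (1.72 to 3.47) for 5 or more CpGs, 6.52 (2.54 to 16.8) for the CTCF motif and 0.664 (0.486 to 0.898) for AP-1.

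Single genes carried several DNMT1 peaks, and of the 453 genes with a K/D peak in the body or within 10 kb 240 also had a WT peak. PARD3 had the most WT peaks of any gene, 9 within its body and 10 kb, none of which was kept, and its 2 K/D peaks lay elsewhere in the gene. TBC1D8 had 5 WT and 0 K/D peaks. Other genes had kept peaks, counted here without regard to place in the list. SIPA1L2, a GTPase-activating protein gene, had 6 WT and 4 K/D peaks, all 4 shared. They stood at WT places 25, 88, 133 and 188 and K/D places 10, 147, 375 and 74. These WT places are in the first of 10 equal parts of the list, where 46.9% of all peaks were kept. ERCC1, of nucleotide excision repair, had 5 WT and 4 K/D peaks with 3 kept. Of these kept peaks, that at WT place 264 lay 0.503 kb from a TSS of the neighbouring gene FOSB, which encodes an AP-1 subunit. MAML3, a Notch coactivator, had 7 WT and 2 K/D peaks, both shared. The K/D list led with LRMDA on chromosome 10 (8 K/D and 3 WT peaks, 0 kept), ADK, which encodes adenosine kinase (6 and 3, 1 kept), and CTNNA3, an alpha-catenin gene (5 and 7, 1 kept). NR5A2, a nuclear receptor gene on chromosome 1, had 5 K/D and 0 WT peaks. In all 1310 genes had a WT peak in the body or within 10 kb, and of the 240 genes with both 70 had no kept peak. Long genes can hold more peaks by length alone, and counts were not corrected for it.

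Of 19785 protein-coding genes, 2.55% had a WT DNMT1 peak within 10 kb of a TSS (504 genes), and 0.89% had a K/D peak (176 genes). Both lists shared 78 genes, which is 44.3% of the K/D genes (interval 36.8 to 52.0) and 15.5% of the WT genes (interval 12.4 to 18.9). A kept peak stood near 66 genes. These included PTHLH, MAML3, PPP2R5A, ARHGAP12 (a GTPase-activating protein), FOXP1 (a forkhead factor), RARG (a retinoic acid receptor), TM4SF1 and FOSB.

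The lists of genes drawn up for this comparison, with earlier results of these data known, had few peaks. None of the 28 genes of the DNA methylation machinery, such as DNMT1, UHRF1 and the TET genes, had a peak of either list within 10 kb of a TSS, and neither did the 30 genes known to be hypermethylated in prostate cancer or the 25 germline genes that DNA methylation silences. For lists of this size the exact interval of a count of 0 reaches up to 11.6% to 13.7%, against background shares of 2.55% and 0.89%. Of 25 imprinted genes, GRB10 (1.47 kb) and L3MBTL1 (0.353 kb) had a WT peak and none a K/D peak. Of 28 genes of epithelial-mesenchymal transition and invasion, NRP1 (0.112 kb), ZEB2 (1.60 kb) and SNAI1 (6.14 kb) had a WT peak and none a K/D peak. Of 47 autophagy genes, UVRAG (0.486 kb) and ATG9B (4.19 kb) had a WT peak and none a K/D peak. Of 20 inflammatory genes, IL6 (0.631 kb) and CXCL2 (9.97 kb) did so, and of 17 DAXX partners MORC3 (1.70 kb).

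FOSB was the one gene of 20 AP-1 and immediate-early genes with a peak within 10 kb, in WT (0.503 kb) and K/D (0.478 kb). Of 16 bone metastasis genes PTHLH had a peak in both lists and DKK1, a WNT antagonist, in K/D alone (8.84 kb). PARD3 (9.37 kb) of 24 adhesion and cytoskeleton genes, and ASAP1 (1.61 kb) of 20 YAP and TEAD target genes, had a K/D peak alone within 10 kb. The nearest WT peak was 15.6 kb from a TSS of PARD3, just past this limit, and 127 kb from one of ASAP1. SPRED2 (0.158 kb) of 21 feedback genes of the EGFR and MAPK pathway had a WT peak alone. With a K/D list of 595 peaks, absence of a K/D peak at a single gene was the usual outcome and says little about that gene.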

How the data were processed

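DNMT1 ChIP-Seq libraries of PC3 WT and DAXX K/D cells were compared from their deposited peak lists. Per the submitters' processing notes, the tools were CASAVA 1.8.2, Bowtie2 2.1.0 and HOMER 4.6 with genome build hg19. By their headers, the deposited lists were called by the authors against the matched input, 1 list per library, on tags that join an old and a new run. All required 4.0-fold over input. The DNMT1 and DAXX lists also required 4.0-fold over the surrounding 10000 bp and an FDR of 0.001. The H3(Lys4) lists were called otherwise. Their headers give no FDR but a Poisson threshold of 12 (WT) and 13 (K/D) tags, with 0 regions removed by local signal. The peak score that the authors deposited is 1 throughout, so peaks were ordered by their place in the list. Peaks on other contigs were left out (3 WT, 5 K/D).

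Genes came from GENCODE release 44 mapped to GRCh37, and sequence from GRCh37. Peak centres were assigned to promoters, exons, introns or intergenic sequence. A set of 14 motifs was searched on both strands within 100 bp of centres and again 2 kb away on each side. Shares carry exact Clopper-Pearson intervals, and odds ratios come from the Mantel-Haenszel method over 5 equal parts of the list or from a single table (conditional estimate, exact interval). Python 3.11.15, scipy 1.17.1, statsmodels 0.14.6, pysam 0.24.0 and samtools 1.23.1 were used. Overlap, motif search and odds ratios were tested on simulated data. Named genes were the first 15 kept, lost and K/D-only peaks, the genes with most peaks, genes with a kept peak within 10 kb of a TSS, and up to 4 genes per list, and others were chosen after their values were seen. A few of the items this rule names are not reported here. The peaks compared, the gene lists and the motifs were chosen with earlier results of these data known.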

Additional observations from a re-analysis of the deposited data

How the results depend on the processing

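No paired analysis was possible because each side has 1 library. The share of WT peaks kept was 8.24% with centres within 100 bp, 9.40% within 500 bp and 8.80% without chromosome 10, all inside the interval given. Requiring 50% of each peak in common gave 7.21%, 27.1% seen from the K/D list and 22.02% at equal numbers, and the first 50% of each list gave 12.3% and 46.5%. At equal numbers the first 100 gave 53.0% and the first 300 gave 35.3%. The promoter odds ratio ranged from 3.13 to 4.01 over its 6 alternatives, with intervals above 1. The ratio for CpG observed over expected at or above the median was 1.45 (interval 1.04 to 2.02), but 1.35 with 10 parts, 1.34 without strata, 1.38 without chromosome 10 and 1.44 with stretches as strata, with intervals that reach below 1. For AP-1 it was 0.736, and 0.597 with stretches as strata, which was chosen after seeing the data. For H3(Lys4) it was 0.64 without strata, with an interval under 1 (0.462 to 0.886). AP-1 shares were 20.3% (WT) and 15.6% (K/D) over the deposited peak, 16.5% and 13.3% within 50 bp, and 32.4% in the first 50% of the WT list. Promoter shares were 8.77% and 12.3% with 2 kb on each side of a TSS, and 5.998% in the first 50% of the WT list. Genes with a peak were 1.69% and 0.596% at 5 kb and 8.21% and 2.95% at 50 kb. The alternatives that leave out repeat-masked peaks were not run, because the reference used has no masked bases. With 1 library per side no value has a replicate check. The lists hold no tag count per peak, so peaks just under the threshold of 9 tags cannot be seen.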
